A study of Mus musculus with 16 samples.

Results

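Syt2, Kcns3, Lgi2, Ppargc1a, Kcna1, Scn1a, Scn4b and Nefh are 8 genes associated with fast-spiking neurons and with large axons. They were picked by symbol from the 263 genes listed for the motor cortex beside a stroke, after their levels in mice that recovered and mice that did not had been seen. All 8 are listed for that hemisphere, and none is among the 417 genes listed for the opposite one, where they were not analysed here. The libraries are messenger RNA of the ipsilesional (lesion-side) primary motor cortex of C57Bl6 mice, 1 library per animal. All 8 mice had a stroke, and the labels sort them, after a walking test on a rotating horizontal beam, into recovered (animals 6, 23 and 28) and non-recovered (animals 17, 19, 20, 21 and 29). The labels used here give no age, sex, stroke method or time after stroke, and there is no group without a stroke.

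Fast-spiking neurons of the cortex are mostly inhibitory basket cells that contain parvalbumin. They fire long trains of brief action potentials, which rests on dense sodium and potassium channels in the axon, a fast calcium sensor at the terminal and a high output of mitochondrial energy. Several of these genes are also used by large projection neurons, since thick, fast-conducting axons need the same neurofilaments and some of the same channels. In a piece of whole cortex, fewer cells of a type and less RNA per cell cannot be told apart. Of 24 genes on a list for fast-spiking interneurons, 5 were listed in the ipsilesional table (Kcns3, Kcna1, Syt2, Gad1 and Slc32a1). Pvalb, the gene of parvalbumin itself, was not analysed here, so the name of the gene group rests on what its members are known for.

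Ppargc1a encodes PGC-1alpha, a coactivator known to be concentrated in parvalbumin neurons, where transcripts such as Syt2 and Nefh depend on it. It acts through oestrogen-related receptors among other factors, so the promoters were searched for the receptors' half-site AAGGTCA, its longer form TCAAGGTCA and the cAMP response element TGACGTCA, on both strands. The longer form contains the shorter one. RefSeq promoter windows (GRCm38.p6, 250 bases before to 50 after a transcript start) were given for 6 of the 8 genes, in 8 windows. Kcna1 and Nefh had none. AAGGTCA was found in 1 window each of Syt2 and Lgi2, against 4.72% of all 32851 windows. TCAAGGTCA was found in that Syt2 window, against 0.423% of all windows. TGACGTCA was in none of the 8, against 1.79% of all. The match in Syt2 reads on the strand opposite to the gene, so its reverse complement is in capitals. It begins 167 bases before the RefSeq transcript start that defines the window. RefSeq also starts the gene farther upstream, just after the printed stretch. The match in Lgi2 lies 162 bases before the RefSeq start, at chr5:52566462-52566468, and its last base is the first base of the gene in GENCODE M21, which places the start farther upstream. The stretches printed here, 5′ to 3′ on the strand of the gene, are the Syt2 stretch chr1:134646362-134646533 (plus strand), the Scn1a stretch chr2:66440841-66441087 (minus strand), because the transcripts of these 2 genes varied together most closely, and the Lgi2 match with its flanks. Capitals mark the motif, which the Scn1a window does not hold.
Syt2: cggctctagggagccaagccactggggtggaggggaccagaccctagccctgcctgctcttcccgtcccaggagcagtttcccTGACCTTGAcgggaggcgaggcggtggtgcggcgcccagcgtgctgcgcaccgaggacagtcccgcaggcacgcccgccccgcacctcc
Scn1a: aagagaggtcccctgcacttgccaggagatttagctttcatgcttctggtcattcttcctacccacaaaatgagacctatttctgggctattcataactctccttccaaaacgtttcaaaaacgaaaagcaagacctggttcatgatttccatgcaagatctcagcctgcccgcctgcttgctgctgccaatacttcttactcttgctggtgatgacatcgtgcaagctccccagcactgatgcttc
Lgi2: cctcccccAAGGTCAtccaactt
The Syt2 window was GC-rich, with 74.3% G and C, while that of Scn1a had 47.3%. The median over all windows was 52.7%. A match is a run of letters in this window and shows no binding.

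Each level below is a deposited log2 CPM, the log2 of counts per 1000000 reads. Library totals recovered from the values ranged from 19116423 to 26310889 reads, and the listed genes held 2.40% to 2.61% of them. Differences are recovered minus non-recovered means on that log2 scale, with the standard error (SE) from a limma fit of the whole table. Because the group difference is what chose the genes, the differences are given as descriptions, without a test. The mean was higher in recovered mice for 8 of 8 genes, where 49.8% of all listed genes were higher. All 3 recovered libraries lay above all 5 non-recovered ones for 3 of the 8 (Kcns3, Lgi2 and Nefh), against 20.9% of listed genes, or 42.2% when genes fully lower in recovered mice are counted too. The differences ran from 0.19 to 0.36 with a median of 0.27. The median over the 131 listed genes that were higher was 0.24. No p-value of a member passed 0.05 after Benjamini-Hochberg adjustment in limma or in voom, its version weighted by read number, while all 8 had an unadjusted p under 0.05 in both. Over the table, limma's adjusted p passed for 1.14% of genes, all of them lower in recovered mice. Listed genes that were higher with an unadjusted p under 0.05 made up 37.3%. These p-values come from the contrast that chose the 8 genes, so they describe the table and support nothing about its members.

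Syt2 encodes synaptotagmin 2, the calcium sensor for fast, synchronous release at terminals of parvalbumin neurons (chromosome 1, 134646677 to 134762593, plus strand, mm10). It stood at 6.85, 7.02 and 7.31 log2 CPM in recovered animals 6, 23 and 28. In the non-recovered animals 17, 19, 20, 21 and 29 it stood at 6.78, 6.51, 6.96, 6.50 and 6.77. The groups overlapped through 1 non-recovered library, animal 20, which lay above recovered animal 6. The means were 7.06 ± 0.23 (SD, n = 3) and 6.70 ± 0.20 (SD, n = 5), a difference of 0.36 ± 0.14 (SE) or 28.1% in CPM. It was 0.23 without animal 28, below Kcns3 (0.30) and Nefh (0.29), and 0.46 without animal 6.

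**Figure D1:**
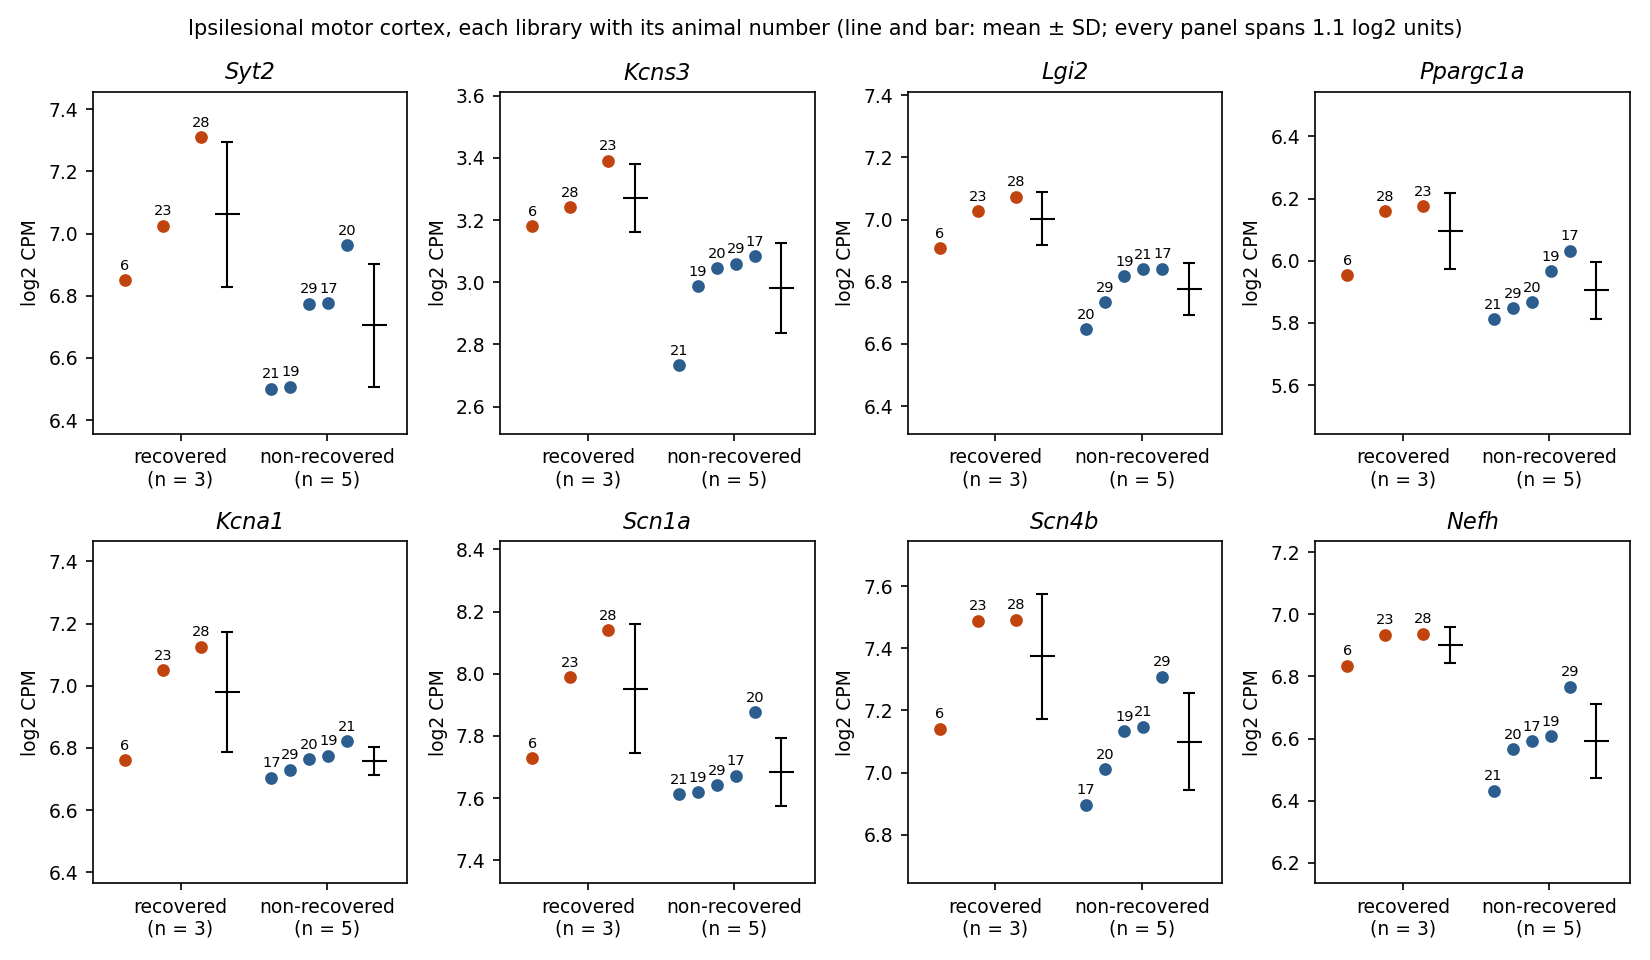
Level of each of the 8 genes in every ipsilesional library (vertical axis, log2 CPM; points, libraries labelled by animal number and spread sideways by level; red, 3 recovered; blue, 5 non-recovered; black mark and bar, mean ± SD). Animal 6 is the lowest recovered library in all 8 panels, and only Kcns3, Lgi2 and Nefh show the groups fully apart.

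The potassium channel genes were Kcna1 and Kcns3. Kcna1 encodes Kv1.1, a low-threshold channel of axons (chromosome 6, 126640397 to 126646384, minus strand). It stood at 6.76, 7.05 and 7.13 log2 CPM in recovered animals 6, 23 and 28, and at 6.70, 6.78, 6.76, 6.82 and 6.73 in non-recovered animals 17, 19, 20, 21 and 29. The non-recovered libraries lay close together (SD 0.04), and animal 6 lay among them, below 3 of the 5, while animals 23 and 28 lay above all. The difference was 0.22 ± 0.09 (SE). Kcns3 encodes Kv9.3, a subunit that is silent alone and changes the currents of its Kv2 partners (chromosome 12, 11090202 to 11151056, minus strand). It was the weakest of the 8, with 150 to 250 reads per library against 1194 or more for every other member. Its levels were 3.18, 3.39 and 3.24 log2 CPM in the recovered animals and 3.08, 2.99, 3.04, 2.73 and 3.06 in the non-recovered ones, in the same order of animals. The groups did not overlap. Animal 21 was low, 0.25 below the mean of its own group, and the difference was 0.29 ± 0.09 (SE).

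Scn1a and Scn4b belong to voltage-gated sodium channels. Scn1a encodes Nav1.1, the pore-forming subunit on which the firing of parvalbumin neurons depends (chromosome 2, 66270778 to 66440840, minus strand). It stood at 7.73, 7.99 and 8.14 log2 CPM in the recovered animals 6, 23 and 28 and at 7.67, 7.62, 7.88, 7.61 and 7.64 in the non-recovered animals 17, 19, 20, 21 and 29. As with Syt2, non-recovered animal 20 lay above recovered animal 6 and was the only library to cross. The other 4 non-recovered libraries differed by less than 0.1. The difference was 0.27 ± 0.10 (SE), and it was 0.17 without animal 28.

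Scn4b encodes the beta-4 subunit, which takes part in the resurgent sodium current of fast-firing cells and is also abundant in striatal and large projection neurons (chromosome 9, 45138395 to 45154152, plus strand). In the same order of animals it stood at 7.14, 7.49 and 7.49 log2 CPM in recovered and at 6.90, 7.13, 7.01, 7.15 and 7.31 in non-recovered libraries. Animals 21 and 29 of the non-recovered group lay above recovered animal 6. The difference was 0.27 ± 0.12 (SE). The gene of another auxiliary subunit, Scn3b, went the other way, from 5.97 ± 0.14 (SD, n = 5) in non-recovered to 5.76 ± 0.04 (SD, n = 3) in recovered mice, a difference of -0.21 ± 0.08 (SE). The log2 ratio of Scn4b to Scn3b was 1.36, 1.77 and 1.69 in the recovered animals, against 0.97, 1.04, 1.23, 1.04 and 1.39 in the non-recovered ones. Its groups crossed at animals 6 and 29.

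Nefh encodes the heavy neurofilament chain, which helps set the calibre of large axons (chromosome 11, 4938754 to 4948064, minus strand). It stood at 6.83, 6.93 and 6.94 log2 CPM in recovered animals 6, 23 and 28, and at 6.59, 6.61, 6.57, 6.43 and 6.77 in non-recovered animals 17, 19, 20, 21 and 29. The recovered libraries were the tightest of any member (SD 0.06), and the groups did not overlap. The difference was 0.31 ± 0.08 (SE). After quantile normalization within the table it was 0.16. Of 14 genes on a list for neurofilaments and axonal transport, Nefh and Nefm were the listed ones. Nefm encodes the medium chain, which assembles with the heavy one, and its difference was 0.27 ± 0.12 (SE), from 8.06 ± 0.18 (SD, n = 5) to 8.33 ± 0.14 (SD, n = 3), with animals 20 and 29 above recovered animal 6. The log2 ratio of Nefh to Nefm was -1.42 ± 0.09 (SD, n = 3) in recovered and -1.47 ± 0.11 (SD, n = 5) in non-recovered mice, a difference of 0.04 that was within the spread of the animals. The 2 chains followed each other within groups, with r = 0.82 and rho = 0.74 over 8 libraries and r = 0.80 without animal 6. The widest deviations from the group mean were those of non-recovered animals 21 (Nefh -0.16, Nefm -0.21) and 29 (0.17 and 0.23). In animals 17, 19 and 20 Nefm deviated by -0.15, 0.01 and 0.12, while Nefh stayed between -0.03 and 0.02. Of the other related pairs, Scn4b and Scn3b had a within-group r of 0.17, Kcns3 and Kcns2 of -0.14, and Kcna1 and Kcnab1 of 0.05. The log2 ratio of Kcns3 to Kcns2 differed between the groups by 0.03 and that of Kcna1 to Kcnab1 by 0.04.

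**Figure D2:**
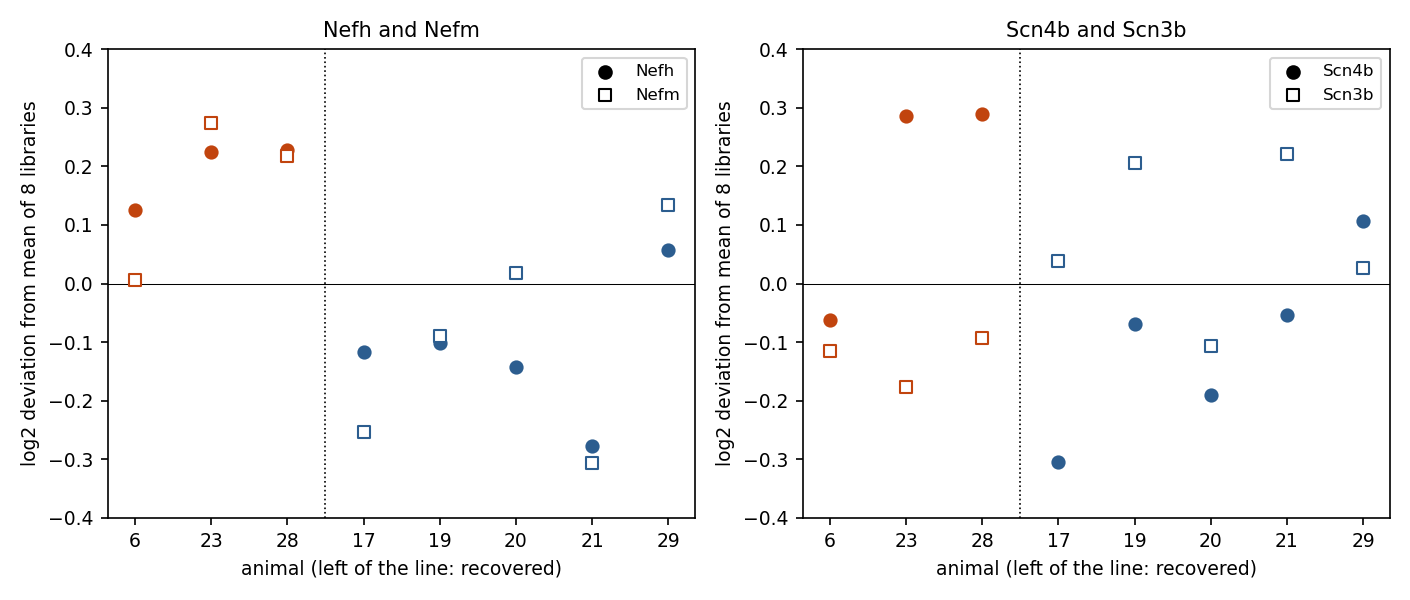
Pairs of related genes by animal (vertical axis, log2 deviation from the gene's mean over 8 libraries; horizontal axis, animal; filled circles, Nefh or Scn4b; open squares, Nefm or Scn3b; red, recovered; blue, non-recovered). Nefh and Nefm lie on the same side of their means in all animals but 20. In recovered animals 23 and 28 Scn4b is above and Scn3b below its mean. Scn3b is also below its mean in animals 6 and 20, and Scn4b is above its mean in animal 29.

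Lgi2 encodes a secreted protein of the LGI family, whose members bind ADAM receptors at the synapse and axon and are linked to epilepsy (chromosome 5, 52533517 to 52566462, minus strand). It stood at 6.91, 7.03 and 7.07 log2 CPM in recovered animals 6, 23 and 28 and at 6.84, 6.82, 6.65, 6.84 and 6.73 in non-recovered animals 17, 19, 20, 21 and 29. The groups did not overlap, though the lowest recovered library was only 0.07 above the highest non-recovered one. The difference was 0.23 ± 0.07 (SE).

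Ppargc1a lies 965791 bases from Lgi2 (chromosome 5, 51454250 to 51567726, minus strand). Its levels were 5.95, 6.17 and 6.16 log2 CPM in the recovered animals and 6.03, 5.97, 5.87, 5.81 and 5.85 in the non-recovered ones, in the same order of animals. Animals 17 and 19 of the non-recovered group lay above recovered animal 6. The difference of 0.19 ± 0.08 (SE), or 14.1% in CPM, stood beside 0.36 for Syt2 and 0.31 for Nefh, transcripts known to depend on PGC-1alpha. After quantile normalization the values were 0.16 for Ppargc1a, 0.37 for Syt2 and 0.16 for Nefh. Within groups Ppargc1a had r = 0.35 with Syt2 and 0.33 with Nefh. Without animal 6 these r were -3.3e-05 and 0.16. Of 23 genes on a list for the PGC-1alpha network, these 3 were the listed ones, and all 3 are members.

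Levels can be set beside each other only per length, here as CPM per kilobase of annotated exon (mean ± SD over all 8 libraries). Scn4b came first with 29.8 ± 4.47, followed by Nefh with 26.4 ± 3.39 and Kcna1 with 24.1 ± 2.77. Scn1a had 19.9 ± 2.85, Lgi2 17.9 ± 1.76 and Syt2 15.2 ± 2.91. Among these 6, neighbours in the order overlapped in their ranges over libraries. Even so, Kcna1 was above Scn1a, and Scn1a above Lgi2, in each of the 8 libraries. Ppargc1a (9.58 ± 0.93) and Kcns3 (2.69 ± 0.36) stood apart below these 6, with no overlap. Other annotated genes overlap the spans of Ppargc1a, Lgi2, Scn1a, Kcns3 and Syt2, but none shares an exonic base with them.

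One recovered library set much of the spread. Animal 6 was the lowest of the 3 recovered libraries for 8 of 8 genes, which held for 48.1% of the listed genes that were higher in recovered mice and for 49% of all listed genes. Without it, both remaining recovered libraries lay above all 5 non-recovered ones for 8 of 8 genes, as for 33.1% of listed genes, and the median difference of the 8 was 0.34. Leaving animal 6 out enlarged the difference of 8 of 8 genes, which follows from its place as their lowest recovered library. The same step enlarged the difference of 56.5% of the listed genes that were higher. Animal 28 was the highest of all 8 libraries for 6 genes and animal 23 for Kcns3 and Ppargc1a. Among the listed genes higher in recovered mice, animal 28 was the highest library in 34.4%. When each gene was centred on its own mean and the 8 were averaged, animals 6, 23 and 28 lay at 0.01, 0.22 and 0.27, and animals 17, 19, 20, 21 and 29 at -0.09, -0.11, -0.07, -0.18 and -0.06. By this average the groups did not overlap, by 0.06.

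**Figure D3:**
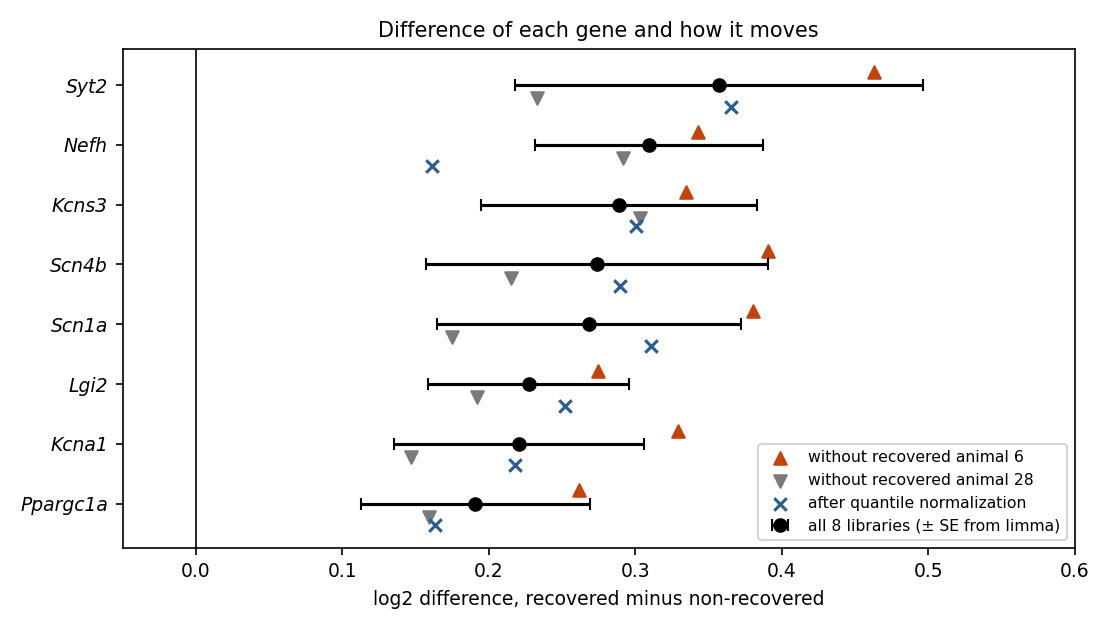
Difference of each gene between recovered and non-recovered mice (horizontal axis, log2 CPM; circles with bars, all 8 libraries ± SE; upward triangles, without animal 6; downward triangles, without animal 28; crosses, after quantile normalization). Every difference is larger without animal 6, as follows from its being the lowest recovered library for each gene. That of Nefh is 0.16 after quantile normalization.

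Animal 6 stands apart in other ways. Its description code has a prefix that no other ipsilesional library carries, and the labels do not say what the prefix means. The codes and titles of the opposite hemisphere disagree on which library belongs to animal 6 and which to 23, so it is the library labelled 6. Of 17 microglia and macrophage markers, 5 were listed (Itgam, C3, Gpnmb, Lyve1 and Casp1), and the others were not analysed here. The summed level of the 5 was 11.5 to 151 CPM in recovered libraries, the highest in animal 6, and 10.4 to 23.8 CPM in non-recovered ones. The means of 4 of the 5 were higher and that of Lyve1 lower in recovered mice, but for Gpnmb, C3 and Itgam this rested on animal 6. Without it the differences were -0.39 for Gpnmb, -1.86 for C3, which had 1 read in animal 28, and -0.01 for Itgam. Those of Casp1 and Lyve1 were then 0.36 and -1.04. In animal 6 Gpnmb stood at 6.50 log2 CPM against at most 3.19 elsewhere, C3 at 5.12 against at most 1.91 and Itgam at 4.47 against at most 2.98. Casp1 was close to the others there, at 1.31 against at most 1.16, and Lyve1 was at -0.32, below every non-recovered library. The next highest library for Gpnmb, C3 and Itgam was non-recovered animal 21, the lowest of all 8 libraries for Syt2, Kcns3, Ppargc1a, Scn1a and Nefh (5 of 8 genes, against 22.1% of the listed genes that were higher). It was also the highest non-recovered library for Kcna1. Its Itgam level of 2.98 was close to those of animals 29 (2.92) and 23 (2.86). Of the non-recovered animals, 29 had the highest average over the 8 genes. Whether myeloid RNA has a part in the lower values of animals 6 and 21 was not tested. Of the other marker lists, meningeal fibroblast genes had 4 of 16 members listed, all lower in recovered mice. Their sums were 352 to 642 CPM in recovered and 418 to 874 CPM in non-recovered libraries. Most of each sum was Ptgds, with 7669 to 21920 reads per library, against at most 582 for Slc6a20a, 396 for Slc22a6 and 88 for Aox3. Listed markers of striatal neurons (2 of 15), thalamic neurons (1 of 7), upper and deep layer excitatory neurons (1 of 12), astrocytes (1 of 10), the oligodendrocyte lineage (1 of 13) and endothelial and mural cells (1 of 10) were all lower. None of the 9 blood and 9 other interneuron markers was listed, and the part of any of these cell types in the differences was not tested.

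Once each group's mean was taken out, how far the 8 genes varied together depended on animal 6 and on the scaling. Over the 28 pairs of genes the median Pearson r of these deviations was 0.36 across 8 libraries, with 25 pairs above 0, against 0.02 over all 34453 pairs of listed genes. Without animal 6 the median was -0.07 and 12 pairs were above 0. With all 8 libraries after quantile normalization it was 0.086. These r share libraries and scaling and are descriptions, with no p. No test was run, since the genes were chosen with these libraries in view. The pair of Syt2 and Scn1a was the closest, with r = 0.88 and Spearman's rho = 0.93. It had r = 0.87 without animal 6, and r = 0.62 without animals 20 and 28, the farthest from the median of Syt2. Kcns3 and Nefh followed, with r = 0.74 and rho = 0.55, and r = 0.08 without animals 21 and 6. Kcna1 and Scn1a, r = 0.72 and rho = 0.43, had r = 0.11 without animal 6 and -0.03 without animals 6 and 28. For each r without 2 animals, the deviations were still those from the group means of all 8 libraries. For r without animal 6 alone, the means were taken anew, so the 2 kinds of r are not the same measure. With animals 6 and 28 left out, animal 23 is the only recovered library left. Kcns3 and Kcna1 had r = 0.01, and -0.90 without animal 6.

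**Figure D4:**
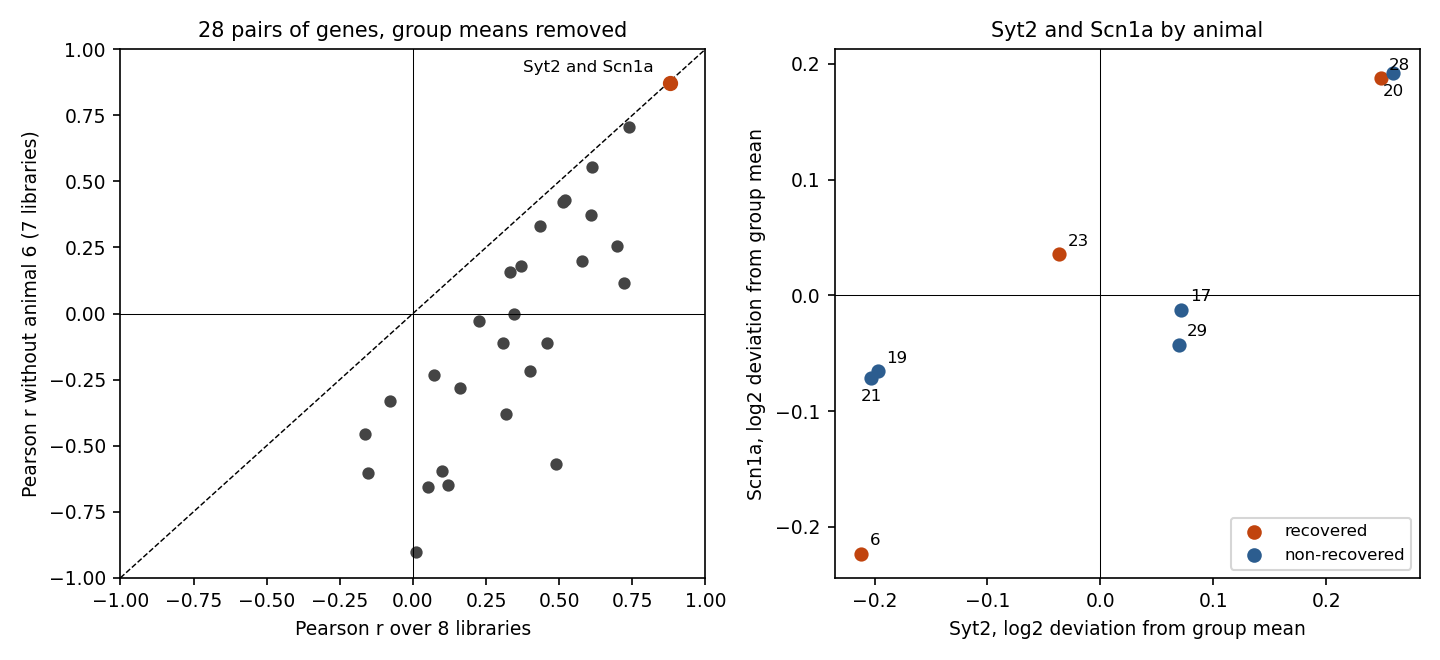
Left, Pearson r of the 28 pairs of genes after removal of group means, over 8 libraries (horizontal axis) and without animal 6 (vertical axis; dashed, equality). Right, deviations of Syt2 and Scn1a from their group means (log2 units) by animal. All 28 pairs lie below the dashed line, and that of Syt2 and Scn1a lies closest to it.

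In the non-recovered group no library was high or low for all 8 genes. Animal 20 was the highest of the 5 for Syt2 and Scn1a and the lowest for Lgi2. Animal 29 was the highest for Scn4b and Nefh, and animal 17 for Kcns3, Lgi2 and Ppargc1a but the lowest for Kcna1 and Scn4b. Animal 21 was the lowest for the remaining 5 genes and the highest for Kcna1.

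**Figure D5:**
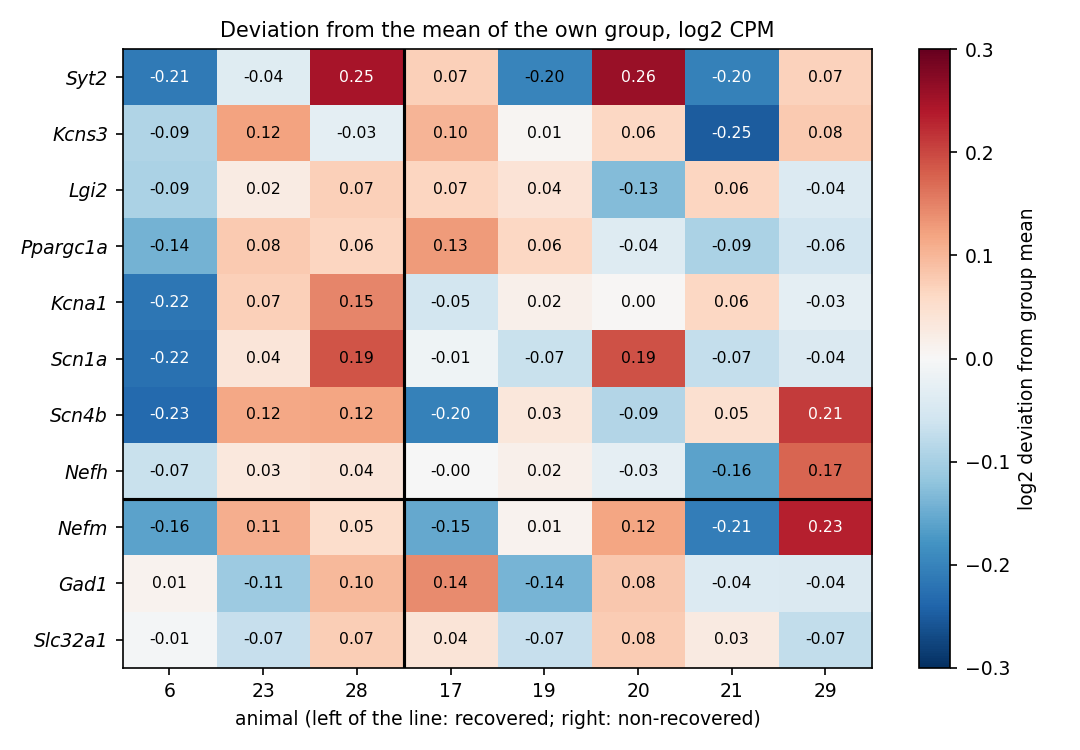
Deviation of each library from the mean of its own group (colour and number, log2 units; rows, the 8 genes above the line and Nefm, Gad1 and Slc32a1 below it; columns, animals). Animal 6 is below its group mean for all 8 genes and Nefm, but about 0.01 from it for Gad1 and Slc32a1.

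The wider lists for these pathways held 119 genes, of which 15 were listed, the 8 members and 7 others. These lists were chosen with earlier results of these data known, so their counts are descriptions and give no independent support. Of the 7, 6 were higher in recovered mice and 1, Scn3b, lower, against 49.8% higher over all listed genes. None passed an adjusted p of 0.05 in limma, and 6 had an unadjusted p under 0.05 in either direction, as did 74.5% of all listed genes. Gad1, which makes GABA, stood at 8.56, 8.44 and 8.64 log2 CPM in recovered animals 6, 23 and 28 and at 8.19 to 8.47 in non-recovered ones, a difference of 0.22 ± 0.08 (SE). Slc32a1, which loads GABA into vesicles, differed by 0.15 ± 0.06 (SE). Unlike the 8 genes, both had their lowest recovered value in animal 23. Kcnab1, a beta subunit of Kv1 channels, differed by 0.18 ± 0.07 (SE), and Kcns2, a silent subunit related to Kcns3, by 0.26 ± 0.09 (SE). For layer 5 projection neurons, Parm1 was the 1 of 15 genes listed, with a difference of 0.19 ± 0.06 (SE).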

How the data were processed

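RNA was extracted from motor cortex and sequenced as stranded poly(A) libraries, per the labels' protocols. Tools named in the submitters' processing notes, with no role stated, were STAR 2.5.1b, Trimmomatic 0.38, edgeR and bcl2fastq, and the build was mm10. What counted the reads, on which annotation, and what chose the listed genes is not given in the sources used here. The authors deposited log2 CPM values of selected genes, normalized within each hemisphere. Solving for a prior of 2 reads returned whole reads (within 0.01) for 100% of ipsilesional values, and the library totals, which may include a normalization factor. Animals are separate mice by label.

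The ipsilesional table (263 genes) was fitted with limma 3.58.1 in R 4.3.3 and no filter, after a check on simulated data. Alternatives were log2(CPM + 1), log2(CPM + 0.1), quantile normalization, voom, a mean of at least 1 CPM and leaving out each library. The genes and lists were chosen with earlier results of these data known. Named genes were the 8 members, listed genes of 6 pathway lists, listed markers of 10 lists of other cell types where a library stood apart, and the 5 genes most and the 5 least like the members' mean deviation. Partner ratios were added later. Positions and exon lengths are those of GENCODE M21 (GRCm38, the assembly behind mm10).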

Additional observations from a re-analysis of the deposited data

Results flagged for a closer look

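Among the 5 non-recovered libraries, the gap between an extreme library and its nearest neighbour, as a share of the group's range, passed Dixon's 95% critical value of 0.71 for 2 genes. For Kcns3 the share was 0.723, from the low value of animal 21. For Scn1a it was 0.776, from the high value of animal 20, which was also the highest non-recovered library for Syt2. Chance alone passes about 1 in 20 groups. The 9 groups tested share these 5 libraries and are not independent, and groups of 3 were not tested.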

How the results depend on the processing

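All 8 differences kept their sign under the 13 alternatives, and 103 of 104 values moved by less than the spread between replicates. Part of that count was fixed in advance. The filter at 1 CPM left every member value unchanged, and log2(CPM + 0.1) and voom hardly moved any at these read numbers. The exception was Nefh after quantile normalization (0.16), a step that also shifted the median of all listed genes by 0.12. Leaving out 1 library gave a median difference of 0.20 to 0.34 and a number of genes with separate groups of 3 to 8 (8 without animal 6, 5 without animal 20, otherwise 3), against 2 after quantile normalization. The median r over pairs ranged from -0.071 (without animal 6, the sign reversed) to 0.49 (without animal 20), and it was 0.086 after quantile normalization. The cause of these shifts was not tested. With TCAAGGTCA in place of AAGGTCA, the promoter match remained in 1 gene instead of 2, since the longer motif contains the shorter one. No paired analysis was possible because the recovered and non-recovered animals are different mice. The planned contralesional comparison gave no value, since none of the 8 genes is listed there. Counting error was at most 8.16% of a level for Kcns3, at its lowest read number, and 2.89% or less for the other members.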

Other observations

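Genes outside the group were ranked by how closely their within-group deviations followed the mean deviation of the 8 genes over the 8 ipsilesional libraries. This ranking is a description of libraries in which animal 6 lies farthest out. Closest were Ppp1r9b (r = 0.95, rho = 0.90), which encodes the spine protein spinophilin, and the kinase gene Pak6 (r = 0.95, rho = 0.90). Fbxl16 (r = 0.92, rho = 0.83), Dlg4 (r = 0.92, rho = 0.86), the gene of the postsynaptic scaffold PSD-95, and Plcxd2 (r = 0.91, rho = 0.81) followed. Without animal 6 their r were 0.88, 0.73, 0.53, 0.71 and 0.76. Of these 5, 4 had lower means in recovered mice, with differences of -0.20 ± 0.10 (SE) for Ppp1r9b, -0.24 ± 0.09 for Pak6, -0.20 ± 0.08 for Fbxl16 and -0.18 ± 0.08 for Dlg4. Without animal 6 these differences were -0.09, -0.13, -0.11 and -0.09, and after quantile normalization those of Fbxl16 and Dlg4 were -0.03 and -0.02. Plcxd2 was higher by 0.34 ± 0.20, by 0.59 without animal 6 and by 0.17 without animal 28. After quantile normalization the difference of Ppp1r9b was -0.08, while that of Pak6 grew to -0.31 and that of Plcxd2 was 0.29.

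Farthest in the opposite direction were the lipid exporter gene Abcg1 (r = -0.95, rho = -0.90), the myeloid gene Gpnmb (r = -0.94, rho = -0.74), Sp110 (r = -0.94, rho = -0.81), Sag (r = -0.93, rho = -0.79) and Gpr137b (r = -0.92, rho = -0.83). In animal 6 Abcg1 stood at 6.49 log2 CPM, against 5.87 to 6.18 in the other 7 libraries, and Sp110 at 2.24 against 0.04 to 1.17. Sag, by contrast, was at 0.92 in animal 6, inside the 0.47 to 1.34 of the others. Without animal 6 the r were -0.81, -0.65, -0.84, -0.90 and -0.54 in the order named.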
